A study of Homo sapiens with 9 samples.

Results

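The comparison described here set the common gene expression of 2 cisplatin-resistant ovarian cancer lines, OV90CisR1 and OV90CisR2, against that of the OV90 cells labelled sensitive. All 9 libraries of the series were used, 6 of resistant cells and 3 of OV90, and 14233 of 43424 gene symbols entered the test because they reached 1 CPM (reads scaled to the library total) in at least 3 of the 9 libraries. The value tested for each gene was the mean of the 2 line means minus the OV90 mean, so that each resistant line weighed the same. These are the only lines behind it, and the spread that entered the test was that between libraries of 1 line or of OV90. A p-value therefore describes these lines and not resistant cells in general.

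OV90 is an established line grown from the ascites of an ovarian adenocarcinoma. OV90 cells were kept in MCDB-105 medium with 15% serum, and both resistant lines were kept in medium that also contained cisplatin, at a dose that is not given in the sources used here. Resistance and continued exposure to the drug cannot be told apart in this design. How the 2 resistant lines were selected, whether each is 1 clone, and whether the libraries of a group came from separate cultures are likewise not given, so that the spread between replicates may be technical. RNA was read from the 3' end of transcripts, which gives 1 tag per transcript and no information on the rest of the gene. Of 12 markers of ovarian carcinoma, 11 were below the filter and WFDC2 had 0 reads in every library, while the epithelial marker EPCAM was detected at 44.9 ± 6.77, 50.2 ± 11.6 and 35.7 ± 2.91 normalised reads (SD, n = 3) in OV90, OV90CisR1 and OV90CisR2. Of 11 leukocyte markers 1 was tested, and the endothelial markers PECAM1, VWF and KDR had 0 reads throughout.

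Cisplatin kills dividing cells by cross-linking the bases of their DNA. Cells can withstand it by taking up less drug through copper transporters and volume-regulated anion channels, by binding it to glutathione, by removing the cross-links through excision repair and homologous recombination, or by blunting the death signal. The title of the series names epithelial-mesenchymal transition, a change in which epithelial cells give up cadherin-based junctions and gain vimentin, fibronectin and a matrix-remodelling programme, driven in development by factors such as those of the SNAI, ZEB and TWIST families. HOX genes, which lie in clusters and give cells of the embryo their position along the body axis, remain expressed in many carcinomas in patterns that differ between tissues.

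Recovered reads per library ran from 5825708 to 7607679, and 17761 to 19153 genes were above 0. A count of 3 reads corresponded to 2.62 to 3.37 normalised reads, and statements on counting cover counting error only. OV90 replicate 3 and OV90CisR1 replicate 3 stood apart from their groups. Correlations of OV90 replicate 3 with replicates 1 and 2 were 0.955 and 0.957, against 0.979 between those 2, and OV90CisR1 replicate 3 correlated with its group at 0.941 and 0.942, against 0.98. Without these 2 libraries, 2132 genes rose (15% of all tested) and 1862 fell (13.1%), so that the counts of gene lists given below without them are read against those shares. Mitochondrially encoded transcripts took 13.2% to 15.9% of the signal in OV90, 16.5% to 18.6% in OV90CisR1 and 16.6% to 17.1% in OV90CisR2, and none of the 15 such genes was called, while 3 rose and none fell without the 2 libraries.

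More rises than falls were called, by a margin that varied with the method. In total 1185 of the 14233 genes (8.33%) passed the threshold of an adjusted p under 0.05 (limma, Benjamini-Hochberg), of which 729 (5.12%) rose and 456 (3.2%) fell. Rises were 61.5% of these calls. In other fits the share ran from 53.3% (quality weights) to 75.3% (without OV90 replicate 1), with 53.9% by edgeR and 54.4% by DESeq2. The change was at least 2-fold for 492 genes (3.46%), 343 up and 149 down. A pooled change can be carried by 1 line, and the libraries show how often it was. In 885 of the 1185 called genes both lines lay clear of OV90 on the same side, meaning that all libraries of each line were above or below all 3 OV90 libraries. In 195 genes only OV90CisR1 lay clear and in 97 only OV90CisR2, while in 6 the lines lay on opposite sides and in 2 neither lay clear. Over all genes tested, called or not, all 6 resistant libraries lay above all OV90 libraries in 910 genes (6.39%) and below them in 901 (6.33%).

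The size of the change often differed between the lines. The difference between OV90CisR2 and OV90CisR1 was called in 1433 genes (10.1%). Its size does not involve the OV90 levels, but the spread between OV90 libraries enters its test and its interval. Leaving out OV90 replicate 3 raised the called line differences to 2327. Leaving out OV90 replicate 1 lowered them to 1205, and leaving out OV90 replicate 2 lowered them to 1224. Of the 1185 pooled calls, 355 (30%) also had a called line difference and are referred to as uneven. Rises that were uneven numbered 241, larger in OV90CisR2 for 110 genes and larger in OV90CisR1 for 131. Uneven falls numbered 114, and 107 of them were larger in OV90CisR1 against 7 in OV90CisR2. An even change was defined as a pooled call of at least 2-fold with all 6 resistant libraries on 1 side of OV90 and a 95% interval of the line difference within 1 log2 unit of 0. It was met by 76 genes, 53 up and 23 down, or 15.4% of the 2-fold calls. A further 239 of the 2-fold calls were neither even nor uneven: their line difference was not called, and they did not meet the definition of even. Lines on opposite sides of OV90 with a called line difference were found in 201 genes, 6 of them also among the uneven ones, 94 with OV90CisR2 high and 107 with OV90CisR1 high.

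**Figure D1:**
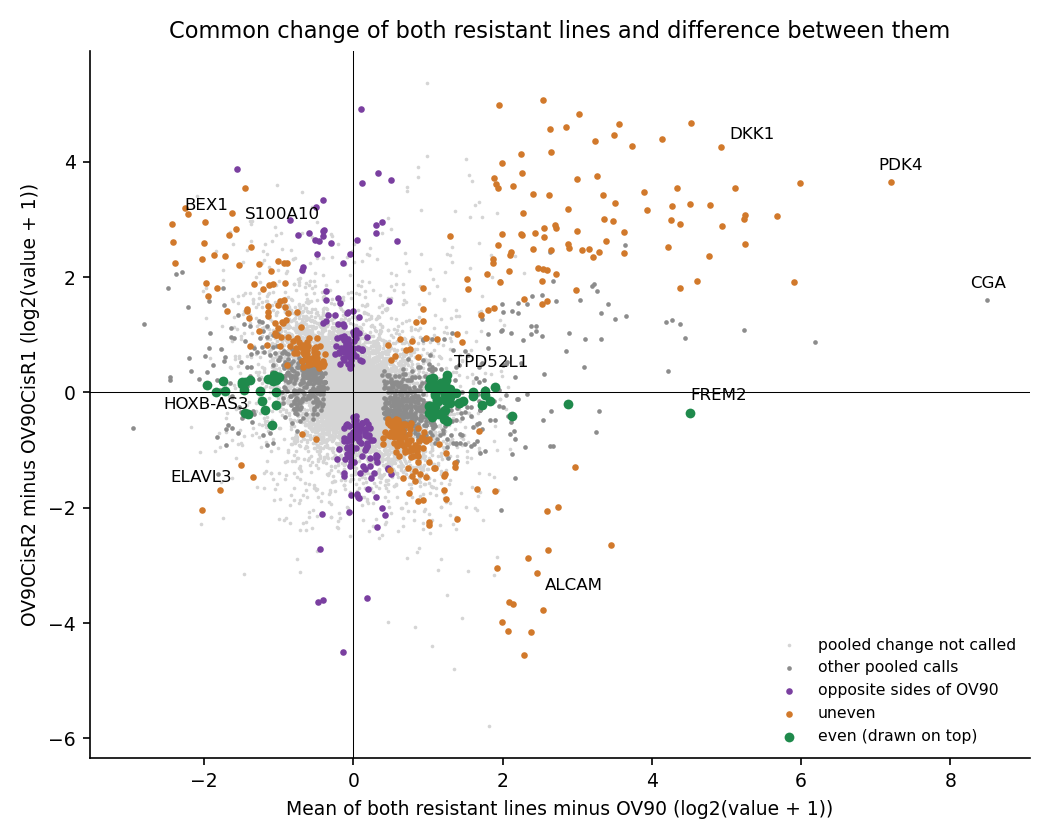
Each point is 1 of 14233 tested genes, with the mean of both resistant lines minus OV90 on the x axis and OV90CisR2 minus OV90CisR1 on the y axis, both as differences of log2(value + 1). Even changes (76 genes) lie along the horizontal line, with FREM2 at 4.51, while uneven changes such as PDK4, DKK1 and BEX1 lie off it and genes with lines on opposite sides of OV90 lie near the vertical line.

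The number of calls depended on single libraries. It was 299 without OV90 replicate 1, 472 without OV90 replicate 2 and 1747 without OV90 replicate 3. Without OV90CisR1 replicate 3 it was 1777, and it was 474, 568 and 542 without OV90CisR2 replicates 1, 2 and 3. A fit that treated the 6 resistant libraries as 1 group, and so counted the line difference as error, called 217 genes. In each fit that left out 1 library, 260 genes (1.83% of those tested) were called, 190 up and 70 down. They comprised 33 of the 76 even and 136 of the 355 uneven genes. In the following, a gene said to hold in every fit is 1 of these 260, and for any other gene the libraries that decide its call are named. The phrase does not cover the fit with 1 resistant group. There FREM2 was called, but ALCAM, BEX1 and LEF1 for example were not (limma adjusted p = 0.13, 0.21 and 0.25).

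Among even rises, FREM2 stood out. FREM2 encodes a large protein of the basement membrane that acts with FRAS1 and FREM1 to hold epithelia to the underlying mesenchyme (chromosome 13, 38687077 to 38887131, GRCh38.p14). It had 33.9, 37 and 19.8 normalised reads in OV90 replicates 1 to 3, 769.6, 757 and 808 in OV90CisR1, and 624, 632 and 579 in OV90CisR2. The resistant libraries lay within a narrow band far above all OV90 libraries. The pooled difference was 4.51 ± 0.18 on the log2 scale (SE; limma adjusted p = 4.5e-07) and the line difference was -0.35 ± 0.21 (limma adjusted p = 0.3), with a 95% interval from -0.8 to 0.11. The call held in every fit. Its partner genes FRAS1 and FREM1 stayed below the filter, FRAS1 with 8, 2 and 8 reads in all in OV90, OV90CisR1 and OV90CisR2 and FREM1 with 14, 13 and 11. The promoter of FREM2 from RefSeq, on the plus strand at chr13:38686827-38687126 (GRCh38.p14, 250 bases before to 50 after the start of the gene), is given because the gene showed the largest even rise. None of 3 motifs searched on both strands, the cAMP response element TGACGTCA, the E-box CACGTG and the TATA box TATAAA, occurs in it, so it holds no capitals.
FREM2: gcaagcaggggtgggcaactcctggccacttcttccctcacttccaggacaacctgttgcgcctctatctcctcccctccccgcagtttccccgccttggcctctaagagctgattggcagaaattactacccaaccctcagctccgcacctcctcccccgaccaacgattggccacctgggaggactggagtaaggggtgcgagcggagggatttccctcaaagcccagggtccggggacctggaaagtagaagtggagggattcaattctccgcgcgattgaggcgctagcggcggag

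The other even rises named by level and size were smaller. TPD52L1, a member of the tumour protein D52 family, rose from 467 ± 51.8 normalised reads in OV90 to 998 ± 96.2 in OV90CisR1 and 1113 ± 36.6 in OV90CisR2 (SD, n = 3), by 1.18 ± 0.11 on the log2 scale (limma adjusted p = 0.00014). FAP, a cell surface protease known from activated fibroblasts, had 106, 108 and 132 normalised reads in OV90, 211, 284 and 255 in OV90CisR1, and 264, 223 and 241 in OV90CisR2. All 6 resistant libraries lay above OV90, with a line difference of -0.04 ± 0.17 (95% interval -0.41 to 0.34) beside a pooled difference of 1.09 ± 0.15 (limma adjusted p = 0.0018). RUBCN, a brake on autophagy, rose by 1.07 ± 0.18 (limma adjusted p = 0.0062). LOC112268009, which carries no name in the annotation, rose from 67.7 ± 38.7 to 228 ± 32.1 and 206 ± 14.1. These 4 calls held in every fit. The kinase gene CDK10 rose by 1.41 ± 0.26, DCBLD1 by 1.22 ± 0.21 and ATF7IP2, which encodes a partner of a histone methyltransferase, by 1.05 ± 0.2, but all 3 lost the call without OV90 replicate 1, with limma adjusted p = 0.055, 0.054 and 0.052.

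Only 6 even falls reached a mean level above 131 normalised reads, the median over tested genes. HOXB-AS3, a long noncoding RNA from the strand opposite the HOXB genes, fell most, from 614, 571 and 367 normalised reads in OV90 to 179, 200.4 and 137 in OV90CisR1 and 204, 189.8 and 174 in OV90CisR2. Its pooled difference was -1.49 ± 0.18 (limma adjusted p = 0.001). How the authors' counting treated strand is not given in the sources used here, so reads of HOXB-AS3 and of HOXB genes that overlap it cannot be told apart. PNMA2, a paraneoplastic antigen of neurons, fell from 293 ± 23.5 to 104 ± 17.8 and 121 ± 18.8. HOXC10 fell from 2113 ± 584 to 891 ± 80.5 and 1098 ± 117, a log2 difference of -1.06 ± 0.17 (limma adjusted p = 0.0048). LIMS1, an adaptor of integrin adhesions, fell from 423 ± 72.5 to 191 ± 15.1 and 221 ± 22.5. AHNAK2, a giant scaffold protein, fell in both lines by 1.09 ± 0.14 on average, though its fall was larger in OV90CisR2 (line difference -0.56 ± 0.16, limma adjusted p = 0.049), which makes it the 1 gene that met both definitions. The muscle M-band gene MYOM1 fell by 1.01 ± 0.2 and lost its call without OV90 replicate 1 (limma adjusted p = 0.068), while the other 5 calls held in every fit.

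**Figure D2:**
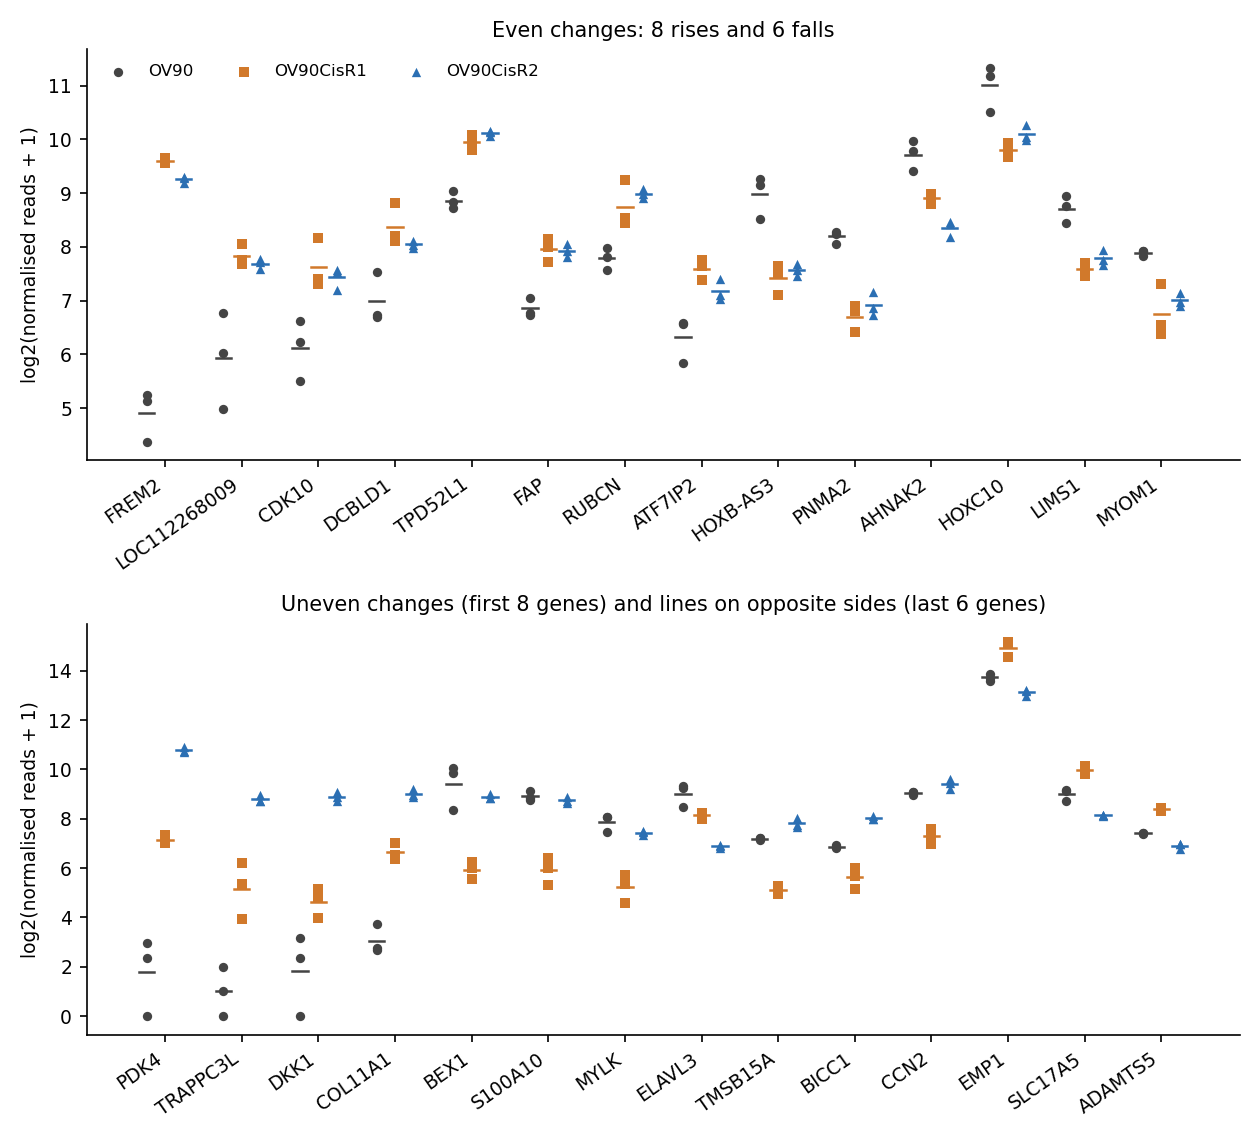
Each point is the log2(normalised reads + 1) of 1 gene in 1 library, with the group mean as a bar, for OV90 (circles), OV90CisR1 (squares) and OV90CisR2 (triangles). For the even genes in the upper panel the resistant libraries of both lines sit together on 1 side of OV90, and for the genes in the lower panel the lines sit apart, with EMP1 for example above OV90 in OV90CisR1 and below it in OV90CisR2.

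Even rises included more noncoding genes than the tested set. Of the 53 even rises 13 (24.5%) were long noncoding RNA genes by RefSeq, against 1660 of all genes tested (11.8%). The share was 8.7% of even falls, 7.41% of uneven changes and 3.52% of genes with opposite lines. The even rises also had lower levels, with a median of 65.5 normalised reads against 131 over all genes tested and 169 over uneven genes. The part of the level in the noncoding share was not tested.

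Among the uneven rises, PDK4, the kinase that shuts down pyruvate dehydrogenase and turns cells from glucose to fatty acid oxidation, had 4.11, 6.81 and 0 normalised reads in OV90, 129, 136 and 159.6 in OV90CisR1, and 1699, 1692 and 1948 in OV90CisR2. Its log2 difference was 5.38 in OV90CisR1 (limma adjusted p = 0.00035) and 9.02 in OV90CisR2 (limma adjusted p = 4.9e-06), so both lines rose and the second far more. TRAPPC3L, a subunit of a vesicle-tethering complex, rose from 1.32 ± 1.48 to 42.2 ± 28.8 and 445 ± 44.1. DKK1, a secreted inhibitor of Wnt signalling, rose from 4.07 ± 4.05 to 25.5 ± 10.3 and 479 ± 64.2, and COL11A1, a fibrillar collagen, from 7.86 ± 3.89 to 101 ± 25.8 and 519 ± 63.6. All 4 rose further in OV90CisR2, with line differences between 2.37 and 4.25 on the log2 scale, and all 4 held in every fit.

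Uneven falls mostly belonged to OV90CisR1. BEX1, an adaptor of neurotrophin signalling, had 1062, 913 and 323 normalised reads in OV90, 64, 45.6 and 75.3 in OV90CisR1, and 459.5, 508 and 456 in OV90CisR2, where the values lay within the range of OV90. S100A10, the calcium-insensitive partner of annexin A2, fell from 482 ± 64.9 to 62.6 ± 22.7 in OV90CisR1 and stood at 431 ± 41.4 in OV90CisR2. MYLK, myosin light chain kinase, fell to 38.4 ± 14.3 from 236 ± 52.7 and stood at 173 ± 9.81 in OV90CisR2. For these 3 genes the difference of OV90CisR2 from OV90 was not called (limma adjusted p = 0.51, 0.79 and 0.47), and the pooled call describes OV90CisR1. ELAVL3, a neuronal RNA-binding protein, fell in both lines and further in OV90CisR2, from 535 ± 155 to 283 ± 27.6 and 118 ± 5.95. The 4 pooled calls held in every fit.

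Where the lines moved apart, the pooled value hid the change. EMP1, an epithelial membrane protein, had 13445, 12301 and 15085 normalised reads in OV90, rose to between 24259.8 and 36349.7 in OV90CisR1, and lay between 8132 and 9474 in OV90CisR2. The pooled difference was 0.3 ± 0.15 (limma adjusted p = 0.23, and 0.4 with limma adjusted p = 0.044 without OV90CisR1 replicate 3) while the line difference was -1.82 ± 0.17 (limma adjusted p = 0.00025). SLC17A5, the lysosomal sialic acid exporter, and ADAMTS5, an aggrecan-cleaving protease, also ran from high in OV90CisR1 to low in OV90CisR2, with 999 ± 120.4 against 282 ± 2.43 and 336 ± 16.4 against 119 ± 9.74 normalised reads around OV90 means of 514 ± 84.2 and 169 ± 3.52. BICC1, an RNA-binding protein, went the other way, from 117 ± 4.75 in OV90 to 49.5 ± 14 in OV90CisR1 and 260.2 ± 13.2 in OV90CisR2. BICC1 was called against OV90 in both lines (limma adjusted p = 0.0043 and 0.014). EMP1 and ADAMTS5 were not called against OV90 in OV90CisR2 (limma adjusted p = 0.093 and 0.084). Nor was CCN2, a matrix-associated growth factor that responds to TGF-beta and YAP (0.37, limma adjusted p = 0.3). By their libraries TMSB15A, a thymosin, and CCN2 lay on the same sides of OV90 as BICC1, with line differences of 2.73 ± 0.18 and 2.12 ± 0.17. Both carried a pooled call, -0.74 ± 0.16 and -0.69 ± 0.15, that each of 4 libraries could end when left out: OV90 replicates 1 and 2 and OV90CisR2 replicate 1 for both, with OV90CisR2 replicate 3 for TMSB15A and OV90CisR2 replicate 2 for CCN2 (limma adjusted p from 0.058 to 0.075 and from 0.054 to 0.098).

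Among the HOX clusters only HOXD had all its tested genes called in the pooled change, a grouping made after the values were seen. All 6 tested HOXD genes rose, with a median log2 difference of 3.72, while none of the 26 tested genes of the other clusters rose. The HOXD genes were near 0 in OV90 and passed the filter only through resistant libraries, so they could rise but hardly fall. Their count is therefore not comparable with those of the other clusters. Of the HOXA genes 1 of 9 fell (median -0.04), of the HOXB genes 3 of 8 (median -0.39) and of the HOXC genes 3 of 9 (median -0.44). Called or not, the pooled difference was below 0 for 6 HOXA genes, 6 HOXB genes and all 9 HOXC genes. The HOXD rise was uneven, with a median of 1.78 in OV90CisR1 and 5.76 in OV90CisR2 and a called line difference for all 6 genes. In OV90CisR1 alone HOXD10 and HOXD11 were called against OV90 (limma adjusted p = 0.00045 and 0.0012). HOXD3, HOXD8, HOXD9 and HOXD13 were not called in that line (limma adjusted p = 0.7, 0.21, 0.055 and 0.12). The 6 HOXD calls and those of HOXA13, HOXB5 and HOXC10 held in every fit. Without the 2 libraries that stood apart all 6 HOXD genes rose, and the other clusters gave 4 falls in HOXA, 7 in HOXC and 5 in HOXB, where HOXB3 and HOXB4 rose.

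HOXD genes were close to silent in OV90. HOXD11 had 5.14, 0.973 and 0 normalised reads in OV90 replicates 1 to 3, 26.9, 46.7 and 49.4 in OV90CisR1, and 304, 375 and 338 in OV90CisR2. HOXD10 had 1 read in all 3 OV90 libraries, 45 reads in OV90CisR1 and 457 in OV90CisR2, a ratio of 50 (95% counting interval 8.53 to 2020) and of 437 (78 to 17300). HOXD9 had 2 reads in OV90, 20 in OV90CisR1 and 224 in OV90CisR2. HOXD13 had 2, 11 and 73 reads. HOXD8 was at 0 in every OV90 library and had 6 reads in OV90CisR1 and 195 in OV90CisR2. Against a floor of 3 reads over the OV90 group these are 2.22-fold and 62.1-fold, with the counting error of the resistant line left out. The OV90CisR1 libraries had 1.03, 5.3 and 0 normalised reads of HOXD8, so a rise in that line is not established. HOXD3 was also at 0 in OV90 and had 1 read in OV90CisR1. Its pooled rise (2.63 ± 0.49, limma adjusted p = 0.01) thus came from the 95 reads of OV90CisR2, 30.3-fold against the same floor. HOXD4 and HOXD1, below the filter, had 0 reads in OV90, 2 each in OV90CisR1 and 23 and 7 in OV90CisR2.

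Falls that held in every fit were found in each of the other clusters. HOXB5 fell from 8034 ± 1051 normalised reads in OV90 to 5083 ± 165 and 4579 ± 135 (log2 difference -0.73 ± 0.11, limma adjusted p = 0.0036). HOXA13 had 55.5, 59.4 and 164 in OV90, between 13.4 and 15.9 in OV90CisR1 and between 24.5 and 40.9 in OV90CisR2, and the 3 OV90 libraries lay above all resistant ones. HOXC10 is described above. The promoters of HOXD11, at chr2:176107030-176107329, and HOXD10, at chr2:176116528-176116827, both on the plus strand (RefSeq, GRCh38.p14), are shown because these neighbours rose together in both lines. Capitals mark the E-box letters CACGTG, found at -90 and -106 from the start. Those letters occur in 7.43% of all 27305 promoters of the table, in 10.1% of those of tested genes and in 10.1% of those of genes that rose, so the match is a description only.
HOXD11: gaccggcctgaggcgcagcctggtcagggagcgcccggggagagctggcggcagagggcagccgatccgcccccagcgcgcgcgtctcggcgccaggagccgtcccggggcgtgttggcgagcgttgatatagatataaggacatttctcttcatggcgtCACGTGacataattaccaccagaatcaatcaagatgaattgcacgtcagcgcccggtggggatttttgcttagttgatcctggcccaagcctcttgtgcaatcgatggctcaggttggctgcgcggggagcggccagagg
HOXD10: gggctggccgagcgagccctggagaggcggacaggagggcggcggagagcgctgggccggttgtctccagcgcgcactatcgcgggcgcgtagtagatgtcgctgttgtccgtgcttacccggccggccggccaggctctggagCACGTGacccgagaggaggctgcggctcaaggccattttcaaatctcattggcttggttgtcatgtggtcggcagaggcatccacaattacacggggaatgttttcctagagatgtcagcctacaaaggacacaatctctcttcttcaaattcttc

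**Figure D3:**
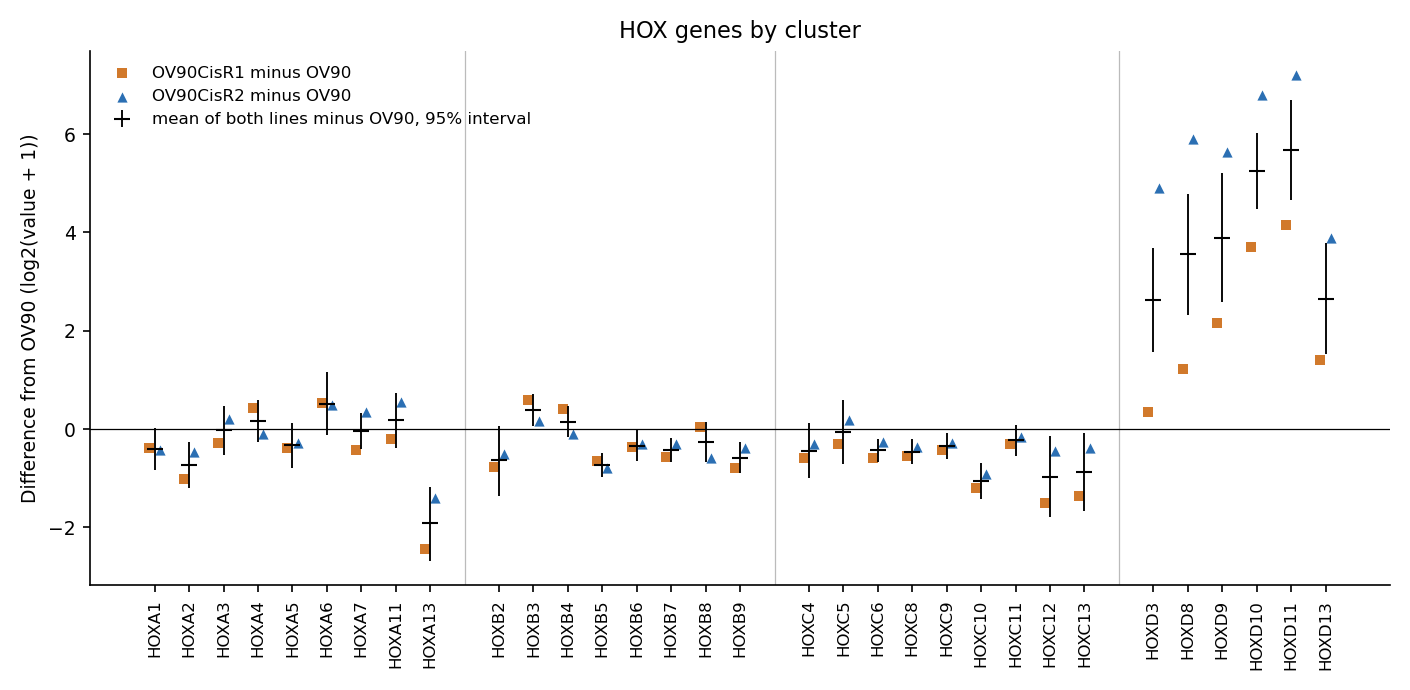
Differences from OV90 on the log2(value + 1) scale for the 32 tested HOX genes in cluster order, with OV90CisR1 as squares, OV90CisR2 as triangles and the pooled value with its 95% interval in black. The 6 HOXD genes lie above 0, and the OV90CisR2 points of the HOXD genes lie above those of OV90CisR1.

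Among other regulators of development, rises and no fall were called with all 9 libraries. Of 22 tested developmental transcription factors 7 rose (31.8%, against 5.12% over all genes) and none fell, with a median of 0.49 against -0.01 over all genes tested. This list, like the others, was chosen with earlier results of these data known, so the share is a description only. SOX11, a factor of neural and mesenchymal progenitors, rose from 3.57 ± 2.06 normalised reads to 47 ± 5.9 and 167 ± 26.6. TBX3, a repressor that acts in limb and mammary development, had 49.4, 43.8 and 71.1 in OV90 and 53.7, 58.3 and 71.9 in OV90CisR1, but 1009, 1166 and 1079 in OV90CisR2, and its pooled call thus reflects 1 line. TBX18 was at 0 in OV90, from where it could not fall, and had 4 reads in OV90CisR1 and 56 in OV90CisR2. Against a floor of 3 reads over the OV90 group these are 1.48-fold and 17.8-fold. The counting error of the resistant line is left out of these ratios, so a rise of TBX18 in OV90CisR1 is not established. These 3 held in every fit. Without the 2 libraries that stood apart, 15 members rose and 1 fell.

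CGA had the largest pooled difference of the named genes. It encodes the alpha subunit shared by the pituitary and placental glycoprotein hormones, and it had 15.4, 29.2 and 0.899 normalised reads in OV90, 1760.2, 2059.6 and 2271 in OV90CisR1, and 5950.1, 6209.8 and 6235 in OV90CisR2. The resistant libraries lay far above those of OV90, which differed among themselves. The pooled difference was 8.49 ± 0.64 (limma adjusted p = 3.1e-05), and it held in every fit. PRL, prolactin, rose from 716 ± 159.6 to 2693 ± 98.5 and 986 ± 51.5 (pooled 1.21 ± 0.13, limma adjusted p = 0.00039) and PDGFC, a growth factor of mesenchymal cells, from 6.77 ± 0.453 to 15.1 ± 2.68 and 68.5 ± 17.3. Of 22 peptide hormones and secreted factors 4 rose (18.2%, against 5.12% over all genes) and 3 fell (13.6%, against 3.2%), with a median of 0.4. Without the 2 libraries that stood apart 12 rose and 5 fell. The beta subunit genes CGB5 and CGB8 had 0 reads in every library. The promoter of CGA, on the minus strand of chr6:87095057-87095356 (RefSeq, GRCh38.p14), carries in capitals 2 copies of the cAMP response element TGACGTCA, at -142 and -124 from the start, and the TATA box TATAAA at -29. The TGACGTCA letters occur in 1.98% of all promoters in the table, 3.35% of those of tested genes, 4.48% of those of genes that rose and 2.18% of those of genes that fell. No protein or binding was measured.
CGA: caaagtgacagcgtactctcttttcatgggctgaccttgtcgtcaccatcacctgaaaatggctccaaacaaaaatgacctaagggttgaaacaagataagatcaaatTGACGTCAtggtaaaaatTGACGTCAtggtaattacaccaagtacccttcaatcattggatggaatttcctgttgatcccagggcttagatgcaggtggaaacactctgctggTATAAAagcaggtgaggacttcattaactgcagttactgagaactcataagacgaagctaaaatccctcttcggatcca

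The markers of epithelial-mesenchymal transition did not move in 1 direction. VIM, which encodes vimentin, the intermediate filament of mesenchymal cells, had 39747, 33297 and 35104 normalised reads in OV90, 28456, 23910.4 and 10552 in OV90CisR1, and 21833, 16889 and 21495 in OV90CisR2. All 6 resistant libraries lay below OV90, yet the pooled difference of -0.87 ± 0.26 missed the threshold (limma adjusted p = 0.064), with a 95% interval from -1.45 to -0.3. This rested on single libraries and on the method: VIM was called lower without OV90CisR1 replicate 1 (-1.01, limma adjusted p = 0.036), without OV90CisR1 replicate 3 (-0.66, limma adjusted p = 0.012), without both libraries that stood apart (-0.67, limma adjusted p = 0.00055), with quality weights (-0.69, limma adjusted p = 0.0023) and by DESeq2 (-0.81, adjusted p = 0.016). FN1, fibronectin, passed with -0.93 ± 0.22 (limma adjusted p = 0.029), but it stood at 14.2 ± 3.18 in OV90CisR1 and at 70 ± 8.4 in OV90CisR2 around an OV90 mean of 61.6 ± 10.5, and the call ended without any 1 of 6 libraries, all 3 of OV90 and all 3 of OV90CisR2 (limma adjusted p from 0.057 to 0.091). CDH2, N-cadherin, was near the detection limit at 7.49 ± 2.7, 4.26 ± 0.897 and 5.75 ± 1.49. ZEB1 was at 212 ± 76.4, 168 ± 35.9 and 222 ± 26.3 and was not called (-0.07, limma adjusted p = 0.87), but it was called lower without both libraries that stood apart (-0.5, limma adjusted p = 0.008) and with quality weights (-0.44, limma adjusted p = 0.034). CDH1, E-cadherin, was below the filter, with 7, 0 and 1 reads over the 3 libraries of OV90, OV90CisR1 and OV90CisR2, and SNAI2 had 5, 1 and 31. OV90 itself therefore had high VIM and hardly any CDH1 reads.

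Of 32 tested mesenchymal markers 4 rose (12.5%, against 5.12% over all genes) and 5 fell (15.6%, against 3.2%), with a median of -0.21. Without the 2 libraries that stood apart 8 rose and 10 fell. FAP, POSTN and FHL1 held in every fit. POSTN, the matrix protein periostin, had 3.08, 2.92 and 2.7 normalised reads in OV90, 42.4, 56.2 and 46.1 in OV90CisR1, and 211, 149.6 and 201 in OV90CisR2 (pooled 4.61 ± 0.22, limma adjusted p = 9.9e-07). FHL1, a LIM protein of muscle, fell from 225 ± 23.8 to 52.6 ± 13.3 in OV90CisR1 and stood at 181 ± 17.5 in OV90CisR2. Of 11 transcription factors of the transition 2 rose (18.2%) and none fell, against 4 and 3 without the 2 libraries that stood apart. PRRX1, a homeobox factor of mesenchyme, rose by 1.21 ± 0.3 from 16.3 ± 7.21, a call that ended without OV90 replicate 1, OV90CisR1 replicate 1 or 2, or any OV90CisR2 library (limma adjusted p from 0.054 to 0.083). Of 10 epithelial markers only DSP, a desmosomal plaque protein, rose, from 2 reads in OV90 to 12 in OV90CisR1 and 171 in OV90CisR2, ratios of 6.67 (95% counting interval 1.48 to 61.3) and 81.7 (22.3 to 680), and none fell. The counts were 2 and 2 without the 2 libraries that stood apart.

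Matrix and adhesion lists held more rises than falls with all 9 libraries, as did all genes tested (5.12% and 3.2%). Of 26 tested collagens and matrix glycoproteins 3 rose (11.5%) and 1 fell (median 0.24), among them HSPG2, the basement membrane proteoglycan perlecan, from 52.5 ± 13.3 to 183 ± 58.9 and 96.2 ± 6.55. The 28 matrix proteases and their inhibitors gave 4 rises (14.3%) and 1 fall (median 0.26). TIMP1, a metalloproteinase inhibitor, rose from 9.28 ± 1.5 to 38.2 ± 15.2 and 75.2 ± 8.57 and held in every fit. Among 24 adhesion molecules of the immunoglobulin and cadherin families 6 rose (25%) and none fell, although the median was 0.04, and ALCAM, PCDH9 and PCDH17 held in every fit. ALCAM, a ligand of CD6, had 85.4, 96.4 and 88.1 normalised reads in OV90, 1582, 1394 and 1461 in OV90CisR1, and 163, 185 and 155 in OV90CisR2. Both lines lay clear above OV90, by 4.02 and 0.89 on the log2 scale. PCDH17, a protocadherin, rose from 345 ± 96.2 to 1019 ± 43.6 and 548 ± 9.05. With OV90 replicate 3 and OV90CisR1 replicate 3 left out, rises and falls numbered 8 and 3 for the collagens and glycoproteins, 6 and 3 for the proteases and inhibitors and 7 and 3 for the adhesion molecules. Of 7 tested fibroblast and endothelial markers LUM, DCN and FAP rose and none fell, against 4 and none without the 2 libraries that stood apart. The summed level of that list was 3200 to 4050 normalised reads in OV90, 5950 to 11200 in OV90CisR1 and 3570 to 5080 in OV90CisR2, with the endothelial genes at or near 0; the part of these cell types in the rises was not tested. The call of LUM ended without OV90 replicate 1 or 2 or any OV90CisR2 library (limma adjusted p from 0.054 to 0.11). For LUM only OV90CisR2 lay clear of OV90, and OV90CisR1 was not called (0.61, limma adjusted p = 0.43). A change in the number of cells of a type and a change in RNA per cell cannot be told apart in such bulk samples.

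In the signalling lists, calls with all 9 libraries are read against 5.12% of all genes up and 3.2% down. Of 36 TGF-beta and BMP pathway genes 4 rose (11.1%) and 3 fell (8.33%), with a median of -0.06. Without the 2 libraries that stood apart 12 rose and 3 fell. FST, follistatin, which binds activin, fell from 134, 134 and 42.3 normalised reads in OV90 to between 6.74 and 9.55 in OV90CisR1 and between 13.3 and 24.6 in OV90CisR2 (-2.81 ± 0.38, limma adjusted p = 0.002). INHBA, the activin A subunit, fell from 39.8 ± 5.82 to 21 ± 8.45 and 5.61 ± 1.42, so that the ligand and its binding protein were both lower. BMP4, a bone morphogenetic protein, carried a pooled call from OV90CisR1, where it went from 2992 ± 271 to 9199.9 ± 427, against 2759 ± 278 in OV90CisR2. SMAD9, a transducer of BMP signals, rose from 114 ± 15.6 to 178 ± 11.1 and 268 ± 54.2. These 4 calls held in every fit.

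Of 40 Wnt pathway genes 4 rose (10%, against 5.12% over all genes) and 3 fell (7.5%, against 3.2%), with a median of 0.06. Without the 2 libraries that stood apart 9 rose and 6 fell. LEF1, a nuclear partner of beta-catenin, had 0, 1.95 and 2.7 normalised reads in OV90 and 2.07, 4.24 and 1.12 in OV90CisR1, but 77.8, 63.9 and 95.9 in OV90CisR2, so that OV90CisR2 alone lay clear of OV90. Of 19 Notch pathway genes 2 rose (10.5%) and 1 fell (5.26%), with a median of 0.07. JAG1, a Notch ligand, rose from 27.2 ± 11.8 to 323 ± 70.5 and 130 ± 12.8 (2.97 ± 0.28, limma adjusted p = 0.00014). Of 24 receptor tyrosine kinases 3 rose (12.5%) and 1 fell (4.17%). PTK7, a Wnt co-receptor that lacks kinase activity, rose from 792 ± 74.6 to 1601 ± 338 and 1283 ± 129 (0.85 ± 0.14, limma adjusted p = 0.0055). LEF1, JAG1 and PTK7 held in every fit. Of 26 YAP pathway genes and targets 3 fell (11.5%) and none rose (median -0.24), and none held in every fit. SAV1, a scaffold of the Hippo kinases, was at 268 ± 16.7 and 258 ± 19.5 in the resistant lines against 396 ± 11.8 in OV90, and it lost its call without OV90 replicate 1 or 2 (limma adjusted p from 0.053 to 0.068). In the fit without OV90 replicate 3 and OV90CisR1 replicate 3, rises and falls numbered 5 and 3 for the Notch genes, 5 and 4 for the receptor tyrosine kinases and 2 and 9 for the YAP list.

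Of the routes known for cisplatin tolerance, transport gave no pooled call with all 9 libraries. None of 16 tested genes of platinum and copper transport passed (median -0.03), where 5.12% of all genes rose and 3.2% fell. Without the 2 libraries that stood apart none rose and 3 fell. The line difference was called in 4 of the 16, against 10.1% of all genes. Their medians were 0.18 in OV90CisR1 and -0.15 in OV90CisR2, so the pooled value can hide changes of single lines. SLC31A1, the high-affinity copper importer through which cisplatin enters, was at 231 ± 13.3 in OV90, 241 ± 13.3 in OV90CisR1 and 181 ± 23.5 in OV90CisR2, a pooled difference of -0.15 ± 0.13 with a 95% interval from -0.43 to 0.13. ATP7B, a copper exporter, was at 49.3 ± 24.7, 61.9 ± 29.4 and 57.4 ± 17.8, an interval from -0.57 to 1.24. GSTP1, a glutathione transferase, differed by -0.02 ± 0.15 (interval -0.33 to 0.3) and ERCC1, an excision repair nuclease subunit, by -0.24 ± 0.15 (interval -0.57 to 0.1). ABCB1, the P-glycoprotein drug pump, had 1, 0 and 1 reads. Of 23 tested ABC transporters only ABCA5, a lysosomal lipid transporter, rose, from 14.4, 16.5 and 14.4 normalised reads to between 66.3 and 101 in OV90CisR1 and between 54.2 and 68.6 in OV90CisR2 (2.12 ± 0.21, limma adjusted p = 0.0002, held in every fit), against 5 rises and 1 fall without the 2 libraries that stood apart.

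Among 31 NRF2 targets and glutathione genes there were 4 falls (12.9%, against 3.2% over all genes) and no rise (median -0.2), against 10 and 4 without the 2 libraries that stood apart. The falls were of TXNRD1, FTH1, GCLM and SRXN1, and none of these calls held in every fit. FTH1, the ferritin heavy chain, lay at the threshold and lost its call without any 1 of 6 libraries, all 3 of OV90 and all 3 of OV90CisR2 (limma adjusted p from 0.05 to 0.2). SRXN1, which restores oxidised peroxiredoxins, came closest, at 345 ± 64 and 481 ± 25.5 against 735 ± 118, and lost its call without OV90 replicate 1 only (limma adjusted p = 0.053), as did TXNRD1, thioredoxin reductase (limma adjusted p = 0.085). GCLM, the modifier subunit of glutathione synthesis, was at 370 ± 123 in OV90 and at 153 ± 17.1 and 243 ± 28.1 in the resistant lines, and its call ended without replicate 1 or 2 of OV90 or of OV90CisR2 (limma adjusted p from 0.059 to 0.13). Genes of homologous recombination and the Fanconi anaemia pathway gave 6 rises (15.8% of 38, against 5.12% over all genes) and no fall, against 9 and none without the 2 libraries that stood apart, but the median was 0.03 and none held in every fit. FANCA, a core complex member, was at 56.6, 102 and 175 in OV90 and between 187 and 251 in the resistant libraries, so that OV90 replicate 3 lay near them, and its call ended without OV90 replicate 1 or 2, OV90CisR1 replicate 1 or 2, or any OV90CisR2 library (limma adjusted p from 0.062 to 0.16). Of 27 nucleotide excision repair genes 1 fell, and 2 of 21 genes of mismatch repair or translesion synthesis rose. Of 28 p53 targets 2 rose and 1 fell, and CDKN1A, the cell cycle inhibitor p21, was at 142 ± 59.2, 74.1 ± 20.7 and 96.9 ± 8.52 and was not called (-0.65, limma adjusted p = 0.17). This rested on OV90 replicate 3, without which CDKN1A was called lower (-1.06, limma adjusted p = 0.012), as it was without both libraries that stood apart (-1.17, limma adjusted p = 8.1e-05) and with quality weights (-1.05, limma adjusted p = 5e-04). Of 24 BCL2 family and apoptosis genes 2 fell and none rose. Without the 2 libraries that stood apart, rises and falls numbered 3 and 6 for nucleotide excision repair, 6 and 2 for mismatch repair and translesion synthesis, 5 and 6 for the p53 targets and 2 and 7 for the BCL2 list.

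Hypoxia and stress genes fell more often than they rose in the full set of libraries. Of 39 hypoxia and glycolysis genes 2 rose and 8 fell (20.5%, against 3.2% over all genes), with a median of -0.37. Without OV90 replicate 3 and OV90CisR1 replicate 3 the counts were 10 and 10 and the median 0.01, so the direction of the list rested on these libraries. BHLHE40, BNIP3L, DDIT4 and MXI1 held in every fit. BHLHE40, a clock and hypoxia repressor, had 269, 217 and 306 normalised reads in OV90, 148, 128 and 77.5 in OV90CisR1, and 60.4, 72.6 and 77.4 in OV90CisR2. BNIP3L, a receptor for the removal of mitochondria, was at 385 ± 23.7 and 385 ± 23.2 in the resistant lines against 649 ± 41.4 (-0.75 ± 0.11, limma adjusted p = 0.0025), with a line difference of 0 ± 0.12. Of 36 genes of the unfolded protein and amino acid stress responses 2 rose and 7 fell (median -0.28), against 8 and 17 without the 2 libraries that stood apart, and DDIT4, an inhibitor of mTORC1 induced by stress, fell from 67.9, 46.7 and 131 to between 14 and 36.1 in the resistant libraries. Among 30 AP-1 and immediate early genes 1 rose and 4 fell (median -0.26), against 4 and 10 without the 2 libraries that stood apart. JUN fell from 325 ± 25.8 to 171 ± 18.9 and 215 ± 20.5 (-0.76 ± 0.13, limma adjusted p = 0.0073, held in every fit).

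Immune and lipid lists had medians below 0, with calls that depended on the 2 libraries that stood apart. Over all genes tested 5.12% rose and 3.2% fell, against 15% and 13.1% without the 2 libraries. Of 27 interferon-stimulated genes 3 fell and none rose (median -0.4), against 16 and 1 (median -0.6) without them. Of 17 NF-kB cytokines and feedback genes 4 fell (23.5%) and none rose, against 7 and 1 without them, and none held in every fit. None of 35 sterol and fatty acid synthesis genes was called (median -0.21), whereas 26 fell and none rose without the 2 libraries (median -0.54). Of 44 cell cycle genes only CDKN2C, an inhibitor of CDK4 and CDK6, rose, from 96.8 ± 9.1 to 173 ± 5.71 and 194 ± 16.7 (0.92 ± 0.14, limma adjusted p = 0.0031, held in every fit), against 23 rises and 1 fall without the 2 libraries. Of 33 heat shock proteins 1 rose, against 14 without them. Of 78 cytosolic ribosomal protein genes 1 fell and none rose, against 13 and 2 without them. What sets the 2 libraries apart is not given in the sources used here, and its part in these counts was not tested.

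Of 25 neuronal genes 3 rose and 5 fell, with the lowest median of the lists with at least 10 tested members, -0.5 (2 and 13 without the 2 libraries that stood apart). Shares over all genes were 5.12% up and 3.2% down, and 15% and 13.1% without these libraries. BEX1, ELAVL3, PNMA2 and ADD2 fell and SNAP25 rose in every fit. SNAP25, a subunit of the synaptic vesicle fusion machinery, had 2 reads in OV90, 104 in OV90CisR1 and 264 in OV90CisR2, ratios of 57.8 (95% counting interval 15.6 to 483) and 126 (34.6 to 1050). ADD2, a cytoskeletal protein of neurons and red cells, fell from 329 ± 19.8 to 90.2 ± 17.2 in OV90CisR1 and stood at 336 ± 36.1 in OV90CisR2. Among 27 axon guidance genes 3 rose and none fell (7 and 1 without these libraries), with SEMA4C and its receptor PLXNB2 at 288 ± 31 and 330.1 ± 55.3 in OV90CisR1 and 256 ± 66.2 and 305 ± 30.1 in OV90CisR2, against 139.6 ± 16.6 and 174 ± 18.8 in OV90. Both held in every fit (limma adjusted p = 0.0086 and 0.0064), with line differences of -0.19 ± 0.19 (95% interval -0.62 to 0.23) and -0.11 ± 0.17 (-0.47 to 0.26). LAMP1, a lysosomal membrane protein, rose from 2288 ± 524 to 5809.7 ± 1196 and 3279.8 ± 44.7 among 43 lysosome and autophagy genes, of which 3 rose and 3 fell (7 and 11 without these libraries). TFPI, an inhibitor of coagulation, rose from 103 ± 55.5 to 439 ± 61.5 and 215 ± 5.18, and MAP1B, a microtubule-associated protein, fell from 2470.4 ± 288 to 1345 ± 47.6 and 1800.5 ± 130.5, both in every fit.

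The remaining lists are read against 5.12% of all genes up and 3.2% down. The highest shares of falls, from 2 genes each, were 16.7% (S100 proteins and annexins), 14.3% (coagulation), 12.5% (histones), 12.5% (MHC class I) and 10% (synthetases). The highest shares of rises, also from 2 genes each, were 14.3% (oncofetal factors) and 12.5% (MHC class I). The nuclear respiratory chain, at 4% and 1.33%, lay below both shares. Rises and falls numbered 1 and 1 among 12 integrin subunits, 2 and 2 among 16 genes of MHC class I antigen presentation, 2 and 1 among 14 oncofetal factors, 1 and 2 among 40 cytoskeletal genes, 1 and 2 among 14 coagulation genes and 3 and 1 among 75 nuclear respiratory chain genes. Falls alone were seen for 2 of 35 proteasome subunits, 2 of 20 aminoacyl-tRNA synthetases, 2 of 16 histone genes, 2 of 12 S100 proteins and annexins, 1 of 16 clock genes and 1 of 14 aldehyde dehydrogenases. ALDH3A2, which oxidises fatty aldehydes, was the last of these and held in every fit, at 204 ± 37.3 normalised reads in OV90CisR1 and 390.4 ± 26.8 in OV90CisR2 against 474 ± 43 in OV90 (SD, n = 3). The medians of these lists lay between -0.34 for the S100 proteins and 0.23 for the oncofetal factors. Without the 2 libraries that stood apart, rises and falls numbered 2 and 5 for the integrins, 4 and 5 for MHC class I, 6 and 1 for the oncofetal factors, 6 and 9 for the cytoskeletal genes, 2 and 4 for coagulation and 14 and 5 for the respiratory chain. They numbered 5 and 3 for the proteasome, 2 and 5 for the synthetases, 2 and 4 for the histones, 1 and 4 for the S100 proteins and annexins, 1 and 4 for the clock genes and 2 and 4 for the aldehyde dehydrogenases.

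**Figure D4:**
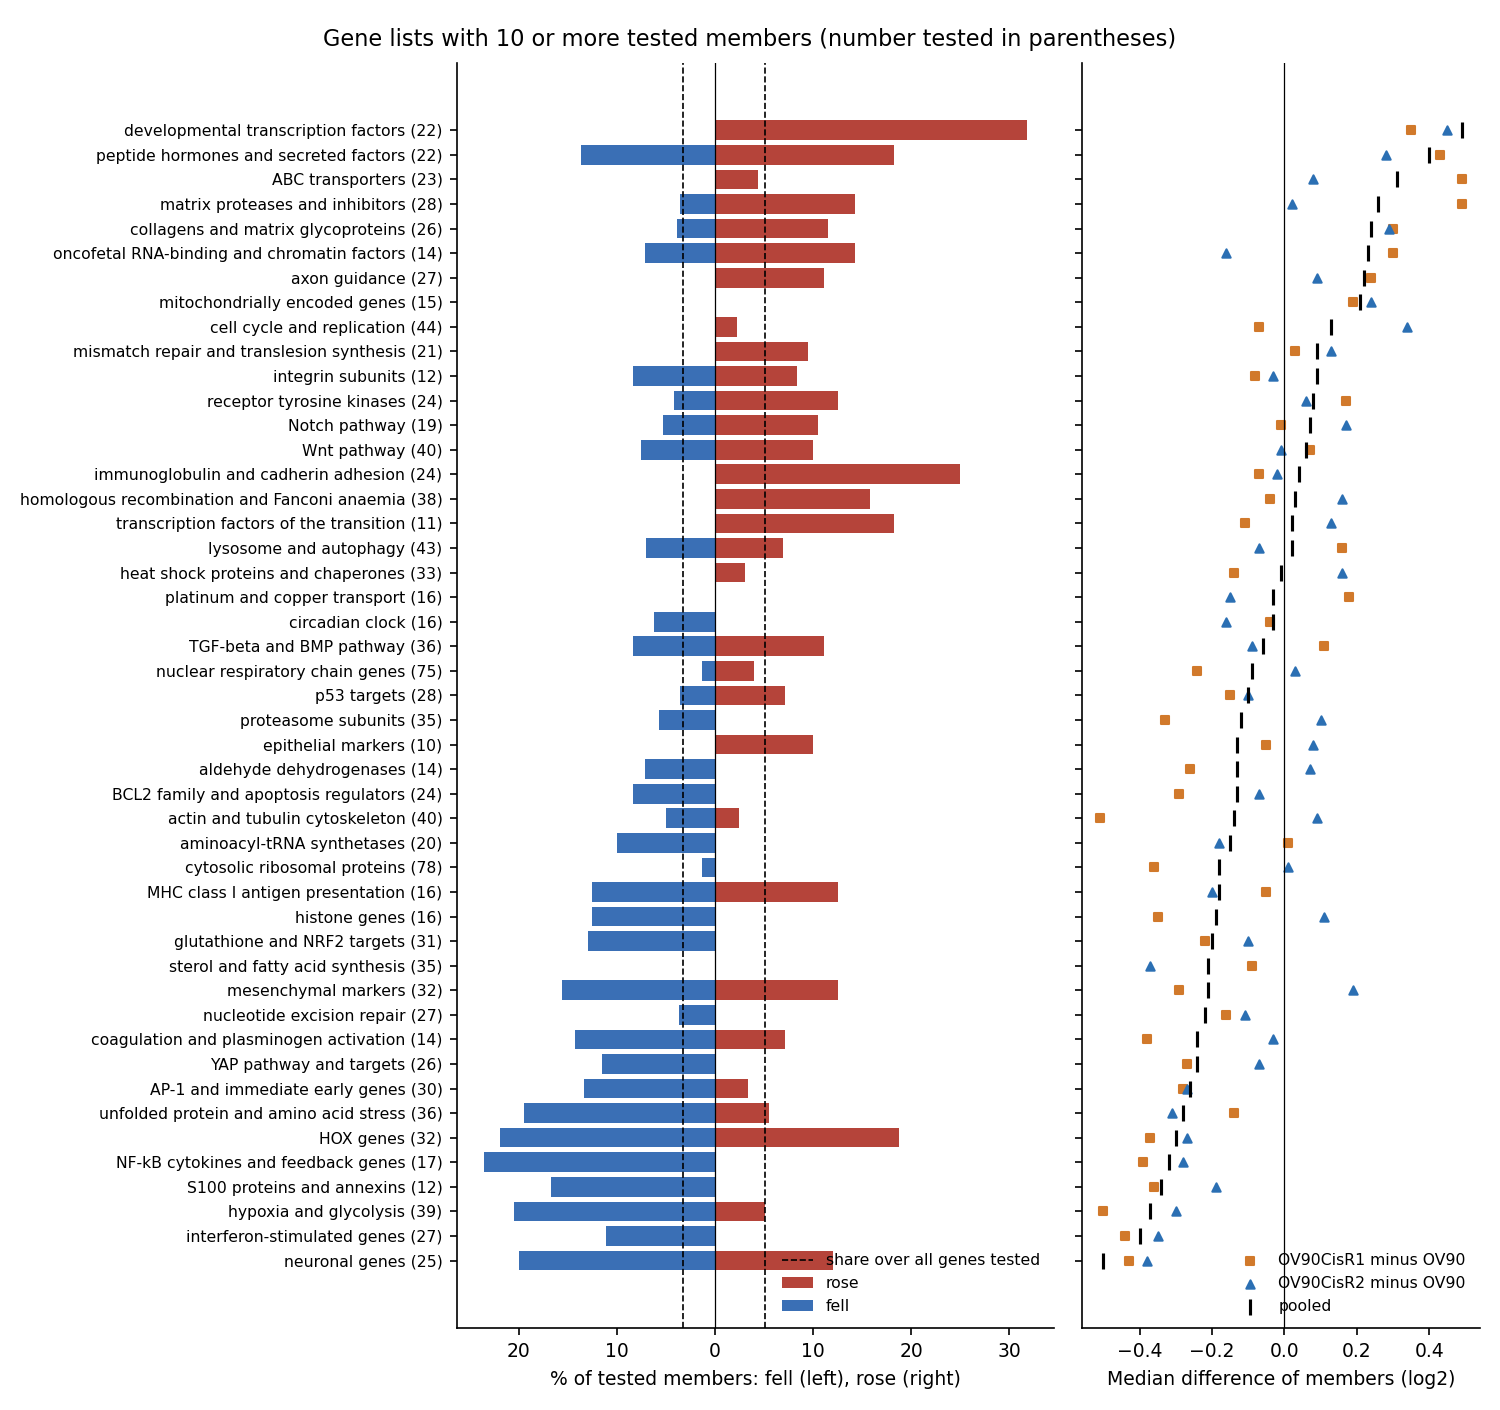
For each list with at least 10 tested members the left panel gives the percentage of tested members that fell (to the left) and rose (to the right), with dashed lines at the shares over all genes tested, 3.2% and 5.12%, and the right panel gives the median log2 difference of each line and of both lines pooled. Developmental transcription factors stand highest by median and neuronal genes lowest, and the hypoxia, unfolded protein and NF-kB lists have more members to the left than to the right.

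The share of calls was then taken along the genome. Positions were taken from RefSeq on GRCh38.p14 for 14046 genes, in 247 windows of 10 Mb with at least 20 tested genes. The window with the highest share of rises was on chromosome 13 from 30 to 40 Mb, where 12 of 30 tested genes rose and none fell (40%, against 5.12% over all genes; median 0.55), among them FREM2, POSTN and SMAD9. Leaving out OV90 replicate 1 reduced the count to 5, and leaving out OV90CisR2 replicate 1, 2 or 3 to 6, 6 or 7. The highest share of falls was on chromosome 18 from 0 to 10 Mb, with 9 of 39 genes (23.1%, against 3.2% over all genes; median -0.45) that include MYOM1. Single libraries ended most of these calls: no fall was called without OV90 replicate 1, 1 without OV90 replicate 2 or OV90CisR2 replicate 1 or 3, 2 without OV90CisR2 replicate 2 and 14 without OV90CisR1 replicate 3, while the median stayed between -0.52 and -0.41. Falls over all genes changed likewise, from 456 to 74 without OV90 replicate 1 and 124 without OV90 replicate 2. They numbered 155, 214 and 187 without OV90CisR2 replicates 1, 2 and 3, and 803 without OV90CisR1 replicate 3. The medians in both lines were close for the chromosome 13 window, 0.59 and 0.6, and apart for the first chromosome 18 window, -0.61 in OV90CisR1 and -0.22 in OV90CisR2.

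Whole chromosomes were then compared, a step chosen after the values were seen. The median pooled difference was 0.24 over the 245 tested genes of chromosome 13, 0.14 over the 726 of chromosome 6, -0.14 over the 505 of chromosome 14 and -0.18 over the 198 of chromosome 18, against -0.01 over all genes tested. The single libraries placed these shifts in different samples. On chromosome 13 OV90 replicates 1 and 2 had medians of 0.23 and 0.3 relative to the mean of the other OV90 libraries, and OV90 replicate 3 had -0.51, while the resistant libraries lay between 0.14 and 0.37. Without OV90 replicate 3 the pooled median of chromosome 13 was 0.05 and that of chromosome 6 was 0.05. The rise over these chromosomes as wholes therefore rested on that library, whereas the median of the window from 30 to 40 Mb was 0.39 without it. On chromosome 14 all resistant libraries lay below those of OV90, from -0.19 to -0.08 against -0.03 to 0.03, and the pooled median ranged from -0.17 to -0.14 with each library left out. Chromosome 18 was likewise below, from -0.24 to -0.06 against -0.04 to 0.06. DNA copy number was not measured.

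**Figure D5:**
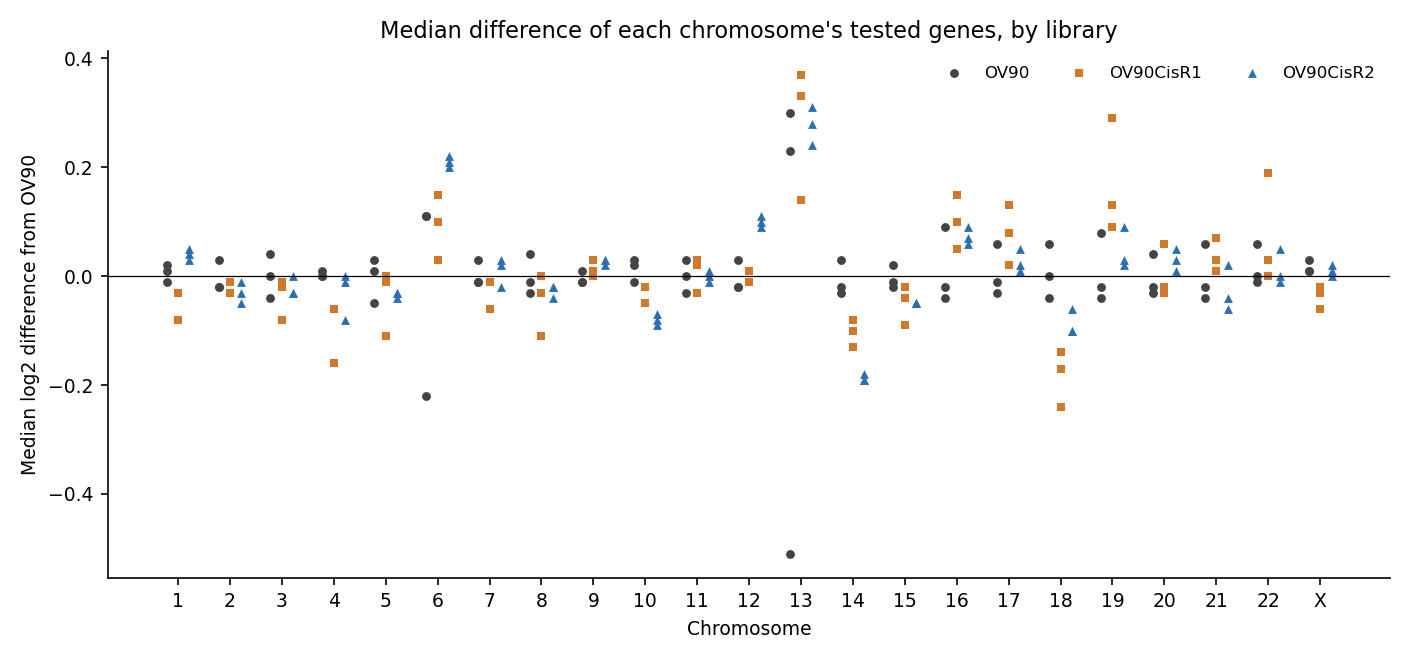
Each point is the median log2(value + 1) difference of the tested genes of 1 chromosome in 1 library from the mean of the OV90 libraries (for an OV90 library, from the mean of the others). OV90 replicate 3 lies at -0.51 on chromosome 13 and -0.22 on chromosome 6, apart from all other libraries, and the 6 resistant libraries lie below the OV90 libraries on chromosomes 10, 14 and 18.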

How the data were processed

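Gene expression was measured in 9 libraries, 3 each of OV90, OV90CisR1 and OV90CisR2, grouped by the labels. Per the labels' protocols, a QuantSeq 3' kit was used with 75-base single-end reads. The submitters' processing notes name Bowtie2, bedtools, edgeR and GRCh38. The sources used here do not give versions, the annotation or how reads were counted and assigned to a strand. The authors deposited 1 table of normalised signal. All values (100%, tolerance 1e-06) were whole reads divided by 1 factor per library, so read counts could be recovered from the deposited signal, with between 5825708 and 7607679 reads per library. Replicates differed by more than counting noise (smallest chi-square per degree of freedom 2.04).

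Differences of log2(value + 1) of the deposited signal were tested by limma (version 3.58.1, under R 4.3.3), fitting 3 group means and letting the variance follow the level, in genes at 1 CPM of the deposited column total in 3 of 9 libraries. The contrasts were the mean of both resistant lines minus OV90 and OV90CisR2 minus OV90CisR1, with Benjamini-Hochberg adjustment over all 14233 genes at 0.05. Fold changes on this scale understate those of low genes. Ribosomal protein genes and others with near-identical copies are uncertain, since reads can be split between copies. The 50 gene lists held 1552 entries, all matched to the table, 1 through an alias. The comparison, its members and the lists were chosen with earlier results of these data known. Named genes are the 8 largest even rises and falls, 4 uneven rises and falls and 3 genes of each opposite direction by line difference, with a mean above the median, up to 2 rises and 2 falls of each list, a panel of 14 genes where tested, and further list members that held in every fit, which were chosen after their values were seen. Some genes that this rule names are not described. Positions and promoters are from RefSeq on GRCh38.p14 (14085 of 14233 symbols matched, 11004 with a promoter). Alternatives were other pseudocounts, filters and scalings, a fit of 2 groups, a replicate block, edgeR 4.0.16 and DESeq2 1.42.0 on the recovered reads, quality weights, and libraries left out singly or, for 2 that stood apart, together. The procedure was tested on simulated data.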

Additional observations from a re-analysis of the deposited data

Results flagged for a closer look

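The change from OV90 differed between OV90CisR1 and OV90CisR2 by the test of the line difference (limma, adjusted over all genes) in 355 genes with a pooled call, and in 201 genes whose lines lay on opposite sides of all OV90 libraries, 6 of which are in both counts. Of the named genes, the change was larger in OV90CisR2 by 3.65 on the log2 scale for PDK4, 3.63 for TRAPPC3L, 4.25 for DKK1 and 2.37 for COL11A1. OV90CisR2 lay above OV90CisR1 by 2.95 for BEX1, 2.83 for S100A10 and 2.21 for MYLK, whose fall was in OV90CisR1, and the value was -1.26 for ELAVL3 and -0.56 for AHNAK2, which fell further in OV90CisR2. Among genes with opposite lines it was 2.73 for TMSB15A, 2.41 for BICC1, 2.12 for CCN2, -1.82 for EMP1, -1.82 for SLC17A5 and -1.49 for ADAMTS5. Single values were not screened with Dixon's test, which was not run on groups of 3 libraries.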

How the results depend on the processing

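All 1185 pooled calls kept their direction in every alternative that tested them, 994 of them under the stricter filter and all under the others. Of the 134 named genes, none of the 120 with a pooled call changed sign, while 7 of the 14 without one did in at least 1 alternative (ATP7B, AXL, BICC1, EPCAM, GSTP1, SLC17A5 and ZEB1). The number of pooled calls was 217 (148 up, 69 down) with the resistant libraries as 1 group, 3938 (2098 up, 1840 down) with quality weights, and 3994 (2132 up, 1862 down) without OV90 replicate 3 and OV90CisR1 replicate 3. DESeq2 called 793 falls against 456. Line differences numbered 4226 with quality weights and 3750 without both libraries, even changes 140 and 219, uneven changes 1550 and 1529, and opposite changes 891 without both. With each library left out in turn, pooled calls ranged from 299 to 1777, rises from 225 to 1014, falls from 74 to 803, line differences from 442 to 2327, even changes from 36 to 190, uneven changes from 118 to 604 and opposite changes from 128 to 581. The cause was not tested. Other pseudocounts, filters, TMM and quantile scaling and edgeR stayed within 1.5 times each count.

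With the replicate number as a block in the fit, 661 pooled calls (433 up, 228 down), 875 line differences and 191 uneven changes were called. Deviations of same-numbered libraries from their group means correlated between -0.307 and 0.09, so the numbers do not pair the samples. Medians of chromosomes were compared across libraries only after the values were seen. Depth limits genes under about 3 normalised reads, as for HOXD genes in OV90, CDH1 and SNAI2.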
